A study of Homo sapiens with 12 samples.

Results

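EHF and 9 related ETS transcription factors (ELF1, ELF2, ELF3, ELF4, SPDEF, ETS1, ETS2, ETV4 and ETV5) were examined in HCT116 cells, a human colorectal cancer cell line, with and without added EHF and CDX1. These 10 genes were taken by symbol from the 28395 genes of the count table, and all 10 passed the filter of at least 0.5 CPM (read counts scaled to library size) in at least 3 libraries. RNA-seq was performed on 4 stable lines with 3 libraries each, 12 libraries in all. HCT116EV cells carried an empty expression vector and HCT116EHF cells an EHF expression plasmid, and both were selected as clones with geneticin (G418). HCT116CDX1 cells carried a CDX1 retrovirus that also encodes GFP and were sorted for GFP, and HCT116EHF+CDX1 cells were made by transfecting HCT116CDX1 cells with the EHF plasmid and selecting with geneticin. The 4 lines give no control for the retrovirus alone, HCT116CDX1 cells carried no plasmid and no geneticin selection is described for them, and the number of clones behind a line is not given. The comparisons ask which ETS factors differ when EHF is added, when CDX1 is added and when both are present, and whether adding EHF has the same effect with and without CDX1.

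ETS factors bind DNA through the ETS domain, a winged helix-turn-helix fold that recognises a GGA core, and differ from each other in the rest of the protein and in the tissue that makes them. EHF, ELF3 and SPDEF belong to the epithelial members of the family, and EHF and ELF3 are found in intestinal epithelium, where SPDEF drives goblet and Paneth cell maturation. ELF1, ELF2 and ELF4 form a more widely made subgroup. ETS1 and ETS2 are effectors of RAS and MAP kinase signalling and, like EHF, carry a Pointed domain. ETV4 and ETV5 belong to the PEA3 subgroup that responds to receptor tyrosine kinase signalling. CDX1, the second factor added here, is a caudal-type homeobox factor of the intestine.

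The promoter sequences of EHF, ELF3 and ETS2 are shown because EHF differed between lines that carry no EHF plasmid, and because ELF3 fell and ETS2 did not pass the test when EHF was added to cells with CDX1. RefSeq (GRCh38.p14) gave windows for 7 of the 10 genes, EHF, ELF1, ELF2, ELF3, ELF4, SPDEF and ETS2, while ETS1, ETV4 and ETV5 are named only. The EHF gene begins at chr11:34621093, upstream of both EHF windows, so its first start below is only the first with a window. Each window holds the 250 bases before a transcription start, written 5′ to 3′ on the strand of the gene. Capitals mark matches on either strand to the ETS cores CGGAAG and AGGAAG and to the caudal core TTTAT. Here and below, an ETS core means these forms with their flanking bases only. The printed windows also hold GGA with other flanks, which was not searched or marked.
EHF, first RefSeq start (chr11:34624007-34624256, plus strand): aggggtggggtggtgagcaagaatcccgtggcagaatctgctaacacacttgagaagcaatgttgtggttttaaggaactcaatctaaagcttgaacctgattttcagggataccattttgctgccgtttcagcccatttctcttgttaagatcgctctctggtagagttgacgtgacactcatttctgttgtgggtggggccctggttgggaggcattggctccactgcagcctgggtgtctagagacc
EHF, start further downstream (chr11:34632316-34632565, plus strand): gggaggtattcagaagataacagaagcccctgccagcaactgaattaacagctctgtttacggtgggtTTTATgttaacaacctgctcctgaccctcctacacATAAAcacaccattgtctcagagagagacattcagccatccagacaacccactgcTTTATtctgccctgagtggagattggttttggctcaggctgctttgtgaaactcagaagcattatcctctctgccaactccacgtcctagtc
ELF3 (chr1:202010337-202010586, plus strand): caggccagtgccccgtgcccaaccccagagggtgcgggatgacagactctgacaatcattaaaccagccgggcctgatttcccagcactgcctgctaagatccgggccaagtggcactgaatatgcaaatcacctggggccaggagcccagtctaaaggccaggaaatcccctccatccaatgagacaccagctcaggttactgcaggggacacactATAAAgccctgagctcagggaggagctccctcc
ETS2, first RefSeq start (chr21:38804933-38805182, plus strand): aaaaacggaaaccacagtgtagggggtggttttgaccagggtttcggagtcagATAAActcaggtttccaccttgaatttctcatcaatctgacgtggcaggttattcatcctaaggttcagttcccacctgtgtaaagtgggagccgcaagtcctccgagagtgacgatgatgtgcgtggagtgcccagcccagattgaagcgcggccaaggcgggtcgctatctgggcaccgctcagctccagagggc
ETS2, start further downstream (chr21:38805679-38805928, plus strand): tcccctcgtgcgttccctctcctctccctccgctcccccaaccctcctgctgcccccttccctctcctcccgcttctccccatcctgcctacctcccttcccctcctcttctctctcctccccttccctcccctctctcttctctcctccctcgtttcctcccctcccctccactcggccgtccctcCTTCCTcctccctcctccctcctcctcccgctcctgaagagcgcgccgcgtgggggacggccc

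The upstream of the EHF windows held no match to any of these motifs. The downstream EHF window held 3 matches to TTTAT and none to the ETS cores. The bases before the start of the EHF gene itself were not in a window. The ELF3 window held 1 match to TTTAT. Of the ETS2 windows, that of the first start held 1 match to TTTAT and that of the downstream start 1 match to AGGAAG. Over all 35116 windows of the table, 16.5% held CGGAAG, 28.7% held AGGAAG, 40.8% held at least one of them and 32.7% held TTTAT. ELF1, ELF2 and ELF4 also fell when EHF was added to cells with CDX1, and their windows are not printed. Each of these genes had 1 window with 1 match to an ETS core and no such match in its other windows. The SPDEF window, not printed either, also held 1 match to an ETS core. The caudal core was found in windows of ELF1, ELF2 and ELF4 and not in that of SPDEF. ETS1 and ETV5, which also fell, had no window, and SPDEF was near the limit of detection. Whether an ETS core in a window goes with a fall was not tested. A match describes letters and is no evidence of binding, and a missing match says only that these letters are not in the window.

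Total counts ranged from 13523007 to 74186741 per library, so that the limit of 3 counts that a count of 0 allows, which covers counting error only, lay between 0.0375 and 0.207 CPM. Replicate 3 of HCT116EV stood apart from the other HCT116EV libraries, with chi-square values per degree of freedom of 297 and 270 against them and 4.11 between them. Pairs within the other lines gave 3.03 to 42.6. The comparisons with HCT116EV are therefore also given without that library. TMM scaling factors lay between 0.799 and 0.845 in HCT116CDX1 and between 0.973 and 1.09 elsewhere. The summed level of 6 epithelial markers of colorectal lines was 2398 to 2901 CPM in HCT116CDX1 against 4208 to 5478 CPM in the other libraries. The markers did not move as a set. Against HCT116EV, 4 fell in HCT116CDX1 (KRT8, KRT18, KRT19 and CDH1) and 2 rose, beside 35.1% and 33.8% of all genes. Those that rose were EPCAM, at 491 against 265 CPM, and CDX2, at 39.9 against 29.9 CPM by line means. The share of counts on the mitochondrial ribosomal RNAs, a measure chosen after its values were seen, was 2.22 to 2.62% in HCT116CDX1 against 0.715 to 1.35% elsewhere. The part of these differences in the results for HCT116CDX1 cells was not tested.

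EHF was the ETS factor with the widest range. It was at 335, 326 and 237 CPM in the HCT116EV libraries and at 12, 13 and 11.9 CPM in the HCT116CDX1 libraries. In the lines that carry the EHF plasmid it was at 19034, 19639 and 19263 CPM in HCT116EHF and at 17115, 19890 and 19118 CPM in HCT116EHF+CDX1. The means were 299 ± 54.4 CPM in HCT116EV, 19312 ± 305 CPM in HCT116EHF, 12.3 ± 0.603 CPM in HCT116CDX1 and 18708 ± 1433 CPM in HCT116EHF+CDX1 (SD, n = 3 each). The plasmid lines thus lay far above the others, HCT116EHF 64.6-fold above HCT116EV, and their own libraries overlapped. EHF took 1.81 to 2.13% of all counts in these lines, and counts per gene do not separate the plasmid's transcript from that of the cell's own gene. HCT116EV and HCT116CDX1 cells carry no EHF plasmid. EHF was 24.3-fold lower in HCT116CDX1 than in HCT116EV cells (log2 fold change -4.60 ± 0.17 SE, edgeR adjusted p = 1.5e-09, and -4.75 without replicate 3 of HCT116EV). The study lists HCT116 among colorectal lines with little or no EHF. The source of the EHF reads in HCT116EV was not tested. EHF fell in this comparison, to 4.11% of its level in HCT116EV. In bulk RNA, fewer cells that make a transcript and less transcript per cell cannot be told apart.

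CDX1 was checked in the same way. Its counts were 0, 0 and 1 in the HCT116EV libraries and 0, 0 and 4 in the HCT116EHF libraries. It was at 487, 559 and 529 CPM in HCT116CDX1 and at 5108, 5639 and 5509 CPM in HCT116EHF+CDX1, 10.3-fold higher in the line with both factors (log2 fold change 3.37 ± 0.18 SE, edgeR adjusted p = 3.2e-08). A comparison of HCT116EHF+CDX1 with HCT116CDX1 cells therefore holds a higher CDX1 level as well as the EHF plasmid.

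**Figure D1:**
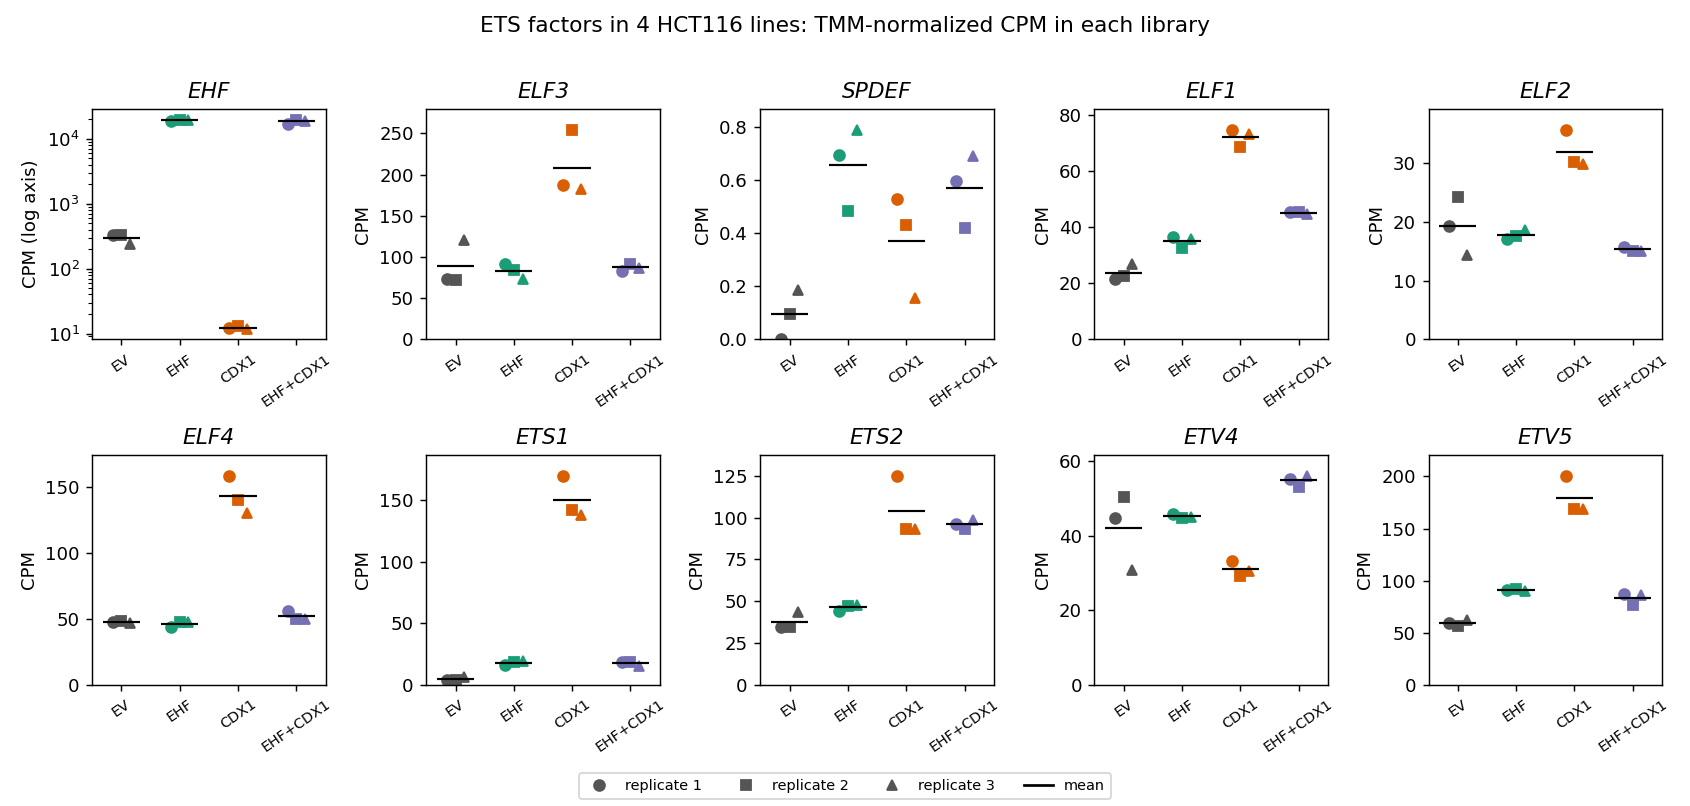
TMM-normalized CPM of the 10 ETS factors in each of 12 libraries, with one panel per gene, the 4 lines on the x axis, a symbol per replicate and a bar at the mean. The axis starts at 0 except for EHF, which has a log axis, and 8 of the 9 genes other than EHF have their highest or lowest mean in HCT116CDX1 cells.

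ELF3, an epithelial factor close to EHF, was higher in HCT116CDX1 cells than in the other 3 lines. It was at 73.5, 72.1 and 121 CPM in HCT116EV, 91.2, 83.4 and 73.5 CPM in HCT116EHF, 187, 254 and 183 CPM in HCT116CDX1 and 83.2, 91.5 and 86.5 CPM in HCT116EHF+CDX1. The HCT116CDX1 libraries all lay above the others, and the libraries of the other lines overlapped. ELF3 rose in HCT116CDX1 against HCT116EV cells (log2 fold change 1.23 ± 0.20 SE, edgeR adjusted p = 0.00014) and fell in HCT116EHF+CDX1 against HCT116CDX1 cells (log2 fold change -1.26 ± 0.20 SE, edgeR adjusted p = 0.00012). It did not pass the test in HCT116EHF against HCT116EV cells (log2 fold change -0.11 ± 0.19 SE, edgeR adjusted p = 0.72) or in HCT116EHF+CDX1 against HCT116EV cells (-0.03 ± 0.19 SE, edgeR adjusted p = 0.92). Replicate 3 of HCT116EV held the highest of the HCT116EV values, and without it the log2 fold change of HCT116EHF over HCT116EV was 0.17 and that of HCT116CDX1 over HCT116EV 1.51.

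SPDEF, the goblet cell factor, was near the limit of detection in every line. Its counts were 0, 2 and 10 in the HCT116EV libraries, 13, 23 and 63 in HCT116EHF, 24, 17 and 6 in HCT116CDX1 and 34, 22 and 10 in HCT116EHF+CDX1, which is at most 0.787 CPM. The means were 0.0928 CPM in HCT116EV, 0.654 CPM in HCT116EHF, 0.370 CPM in HCT116CDX1 and 0.567 CPM in HCT116EHF+CDX1. Every HCT116EHF and HCT116EHF+CDX1 library lay above every HCT116EV library, while the HCT116CDX1 libraries overlapped them. The test against HCT116EV was passed by HCT116EHF (edgeR adjusted p = 0.010), HCT116EHF+CDX1 (edgeR adjusted p = 0.018) and HCT116CDX1 cells (edgeR adjusted p = 0.036). The call for HCT116EHF was lost when all libraries numbered 1 or all numbered 2 were left out. That for HCT116EHF+CDX1 was lost in 6 of 24 settings, among them the test against a 1.5-fold change, limma and the fit without its replicate 1. That for HCT116CDX1 was lost in 11 of 24, among them the test against a 1.5-fold change, limma voom, a replicate block and the fits without replicate 1 or 2 of HCT116EV or of HCT116CDX1. Since 1 of the 3 HCT116EV libraries held no read, no fold is given.

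ELF1, an ETS factor with roles in lymphoid and other cells, was the member of its subgroup that rose in every line against HCT116EV. It was at 21.6, 22.5 and 26.9 CPM in HCT116EV, 36.5, 32.3 and 35.8 CPM in HCT116EHF, 74.6, 68.3 and 73.1 CPM in HCT116CDX1 and 45.4, 45.3 and 44.5 CPM in HCT116EHF+CDX1. No libraries of different lines overlapped, and the order was HCT116EV, HCT116EHF, HCT116EHF+CDX1 and HCT116CDX1. The log2 fold change over HCT116EV was 0.55 ± 0.10 SE in HCT116EHF (edgeR adjusted p = 0.0012), 1.60 ± 0.10 SE in HCT116CDX1 (edgeR adjusted p = 5.8e-08) and 0.93 ± 0.10 SE in HCT116EHF+CDX1 cells (edgeR adjusted p = 2.5e-05). Against HCT116CDX1 cells, HCT116EHF+CDX1 cells were lower (-0.68 ± 0.10 SE, edgeR adjusted p = 6.4e-05). Against HCT116EHF cells they were higher by 0.37 ± 0.10 SE (edgeR adjusted p = 0.032), a call that was lost when any 1 of the 6 libraries of these lines was left out.

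ELF4, which is known from T and natural killer cells, rose with CDX1 and was lower again with both factors. It was at 47.8, 48.3 and 46.3 CPM in HCT116EV, 43.5, 47.4 and 47.6 CPM in HCT116EHF, 158, 140 and 130 CPM in HCT116CDX1 and 55.9, 49.8 and 49.4 CPM in HCT116EHF+CDX1. The HCT116CDX1 libraries lay apart from all others, at a log2 fold change of 1.59 ± 0.09 SE over HCT116EV (edgeR adjusted p = 4.5e-08), and HCT116EHF+CDX1 cells fell against them (-1.46 ± 0.09 SE, edgeR adjusted p = 1.1e-07). HCT116EHF cells did not pass the test against HCT116EV (-0.04 ± 0.09 SE, edgeR adjusted p = 0.79), and neither did HCT116EHF+CDX1 cells (0.12 ± 0.09 SE, edgeR adjusted p = 0.34), whose libraries nonetheless all lay above those of HCT116EV. ELF4 overlaps RAB33A in the genome, which held at most 29 reads in any library.

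ELF2, the closest relative of ELF1 and ELF4, was likewise highest in HCT116CDX1 cells, with smaller differences. It was at 19.4, 24.2 and 14.3 CPM in HCT116EV, 17.1, 17.6 and 18.7 CPM in HCT116EHF, 35.7, 30.3 and 29.9 CPM in HCT116CDX1 and 15.8, 15.1 and 15.1 CPM in HCT116EHF+CDX1. It rose in HCT116CDX1 against HCT116EV cells (log2 fold change 0.73 ± 0.16 SE, edgeR adjusted p = 0.0013; 0.37, without passing the test, when scaled by total counts only) and fell in HCT116EHF+CDX1 against HCT116CDX1 cells (-1.06 ± 0.16 SE, edgeR adjusted p = 9.4e-05). The HCT116EV libraries spread over the range of HCT116EHF and HCT116EHF+CDX1, and neither line passed the test against them (edgeR adjusted p = 0.65 and 0.14). Without replicate 3 of HCT116EV, the lowest of them, ELF2 was lower in HCT116EHF (-0.29, edgeR adjusted p = 0.030) and in HCT116EHF+CDX1 cells (-0.50, edgeR adjusted p = 0.00063).

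ETS1, a founding member of the family, had the largest difference of the 9 factors other than EHF. It was at 3.40, 3.46 and 6.21 CPM in HCT116EV, 15.7, 18.5 and 18.9 CPM in HCT116EHF, 170, 142 and 138 CPM in HCT116CDX1 and 18.4, 18.6 and 15.5 CPM in HCT116EHF+CDX1. Libraries of HCT116EHF and HCT116EHF+CDX1 overlapped, those of HCT116EV lay below them and those of HCT116CDX1 above. ETS1 was 34.4-fold higher in HCT116CDX1 than in HCT116EV cells by the means of 150 ± 17.5 and 4.36 ± 1.61 CPM (log2 fold change 5.06 ± 0.23 SE, edgeR adjusted p = 6.2e-09). It rose in HCT116EHF cells by 1.98 ± 0.21 SE (edgeR adjusted p = 2.7e-05) and in HCT116EHF+CDX1 cells by 1.97 ± 0.21 SE (edgeR adjusted p = 2.3e-05), against HCT116EV in both cases. In HCT116EHF+CDX1 against HCT116CDX1 cells it fell by 3.09 ± 0.20 SE on the log2 scale (edgeR adjusted p = 1.3e-07). Without replicate 3 of HCT116EV, the highest of its line, the log2 fold changes over HCT116EV were 5.45, 2.38 and 2.38 in HCT116CDX1, HCT116EHF and HCT116EHF+CDX1 cells. The overlapping genes ETS1-AS1 and MIR6090 held at most 1 read and no read in any library.

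ETS2, its close relative, was high in both lines with CDX1. It was at 34.7, 34.8 and 43.4 CPM in HCT116EV, 44.4, 47.0 and 47.8 CPM in HCT116EHF, 125, 93.0 and 93.3 CPM in HCT116CDX1 and 96.5, 93.4 and 98.8 CPM in HCT116EHF+CDX1. The libraries with CDX1 overlapped and lay above all others. ETS2 rose in HCT116CDX1 (log2 fold change 1.46 ± 0.13 SE, edgeR adjusted p = 1.0e-06) and in HCT116EHF+CDX1 cells (1.35 ± 0.13 SE, edgeR adjusted p = 1.1e-05) against HCT116EV, and in HCT116EHF+CDX1 against HCT116EHF cells (1.05 ± 0.13 SE, edgeR adjusted p = 0.00025). The difference between HCT116EHF+CDX1 and HCT116CDX1 cells did not pass the test (-0.11 ± 0.13 SE, edgeR adjusted p = 0.46). The 3 HCT116EHF libraries lay above the HCT116EV libraries by a narrow margin without passing the test (0.30 ± 0.13 SE, edgeR adjusted p = 0.096), which they passed without replicate 3 of HCT116EV (0.42, edgeR adjusted p = 0.0028) or without replicate 1 of HCT116CDX1.

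ETV4, a PEA3 factor, was the one of the 10 besides EHF that was lower with CDX1 alone. It was at 44.8, 50.5 and 30.7 CPM in HCT116EV, 46.0, 44.7 and 45.2 CPM in HCT116EHF, 33.3, 29.3 and 30.5 CPM in HCT116CDX1 and 55.3, 53.2 and 56.2 CPM in HCT116EHF+CDX1. The HCT116EHF+CDX1 libraries were the highest and the HCT116EV libraries covered most of the range. ETV4 rose in HCT116EHF+CDX1 against HCT116CDX1 cells (log2 fold change 0.82 ± 0.15 SE, edgeR adjusted p = 0.00034). It fell in HCT116CDX1 against HCT116EV cells (-0.43 ± 0.15 SE, edgeR adjusted p = 0.019; -0.62 without replicate 3 of HCT116EV), a call that was lost without replicate 1 or 2 of HCT116EV or replicate 2 or 3 of HCT116CDX1. Against HCT116EV, HCT116EHF+CDX1 cells did not pass the test (0.39 ± 0.15 SE, edgeR adjusted p = 0.058) but did so without replicate 2 or replicate 3 of HCT116EV, the latter at 0.20 (edgeR adjusted p = 0.028). HCT116EHF cells differed from HCT116EV by 0.11 ± 0.15 SE (edgeR adjusted p = 0.60). ETV4 overlaps DHX8, a gene at 55.2 to 87.4 CPM by line means and highest in HCT116CDX1. The strand setting of the counting is not stated, so ETV4 values are less certain than the others.

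ETV5, the other PEA3 factor, was at 59, 56 and 62.4 CPM in HCT116EV, 91.1, 91.7 and 90.4 CPM in HCT116EHF, 201, 169 and 169 CPM in HCT116CDX1 and 86.7, 76.7 and 86.3 CPM in HCT116EHF+CDX1. No libraries of different lines overlapped. ETV5 rose against HCT116EV in HCT116EHF (log2 fold change 0.62 ± 0.09 SE, edgeR adjusted p = 0.00041), HCT116CDX1 (1.60 ± 0.10 SE, edgeR adjusted p = 4.4e-08) and HCT116EHF+CDX1 cells (0.49 ± 0.09 SE, edgeR adjusted p = 0.0018). It fell in HCT116EHF+CDX1 against HCT116CDX1 cells (-1.11 ± 0.09 SE, edgeR adjusted p = 9.2e-07). HCT116EHF+CDX1 and HCT116EHF cells, the nearest in order, did not pass the test (-0.13 ± 0.09 SE, edgeR adjusted p = 0.46).

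Levels can be set between genes only per length, which the deposited log2 RPKM values allow. In HCT116EV cells EHF was the highest of the 10 genes at a log2 RPKM of 5.65 ± 0.27, followed by ELF3 at 4.71 ± 0.46, ETV4 at 3.91 ± 0.36 and ETV5 at 3.88 ± 0.10 (SD, n = 3 each). ETV4 and ETV5 differed by less than their spread. ETS1 at -0.51 and SPDEF at -4.42 were the lowest. In HCT116CDX1 cells EHF at a log2 RPKM of 1.19 ± 0.06 stood at place 9, above SPDEF at -2.84 only. The order there was led by ELF3 at 5.63 ± 0.27, ETV5 at 5.17 ± 0.09, ELF4 at 4.61 ± 0.10, ETS1 at 4.36 ± 0.11 and ETS2 at 4.32 ± 0.18, and ETS1 and ETS2 lay within their spread of each other. EHF stood at 11.67 in HCT116EHF and 11.49 in HCT116EHF+CDX1 cells, above 99.9% of the 15853 genes in both lines, with ELF3 next among the 10 at 4.69 and 4.77.

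**Figure D2:**
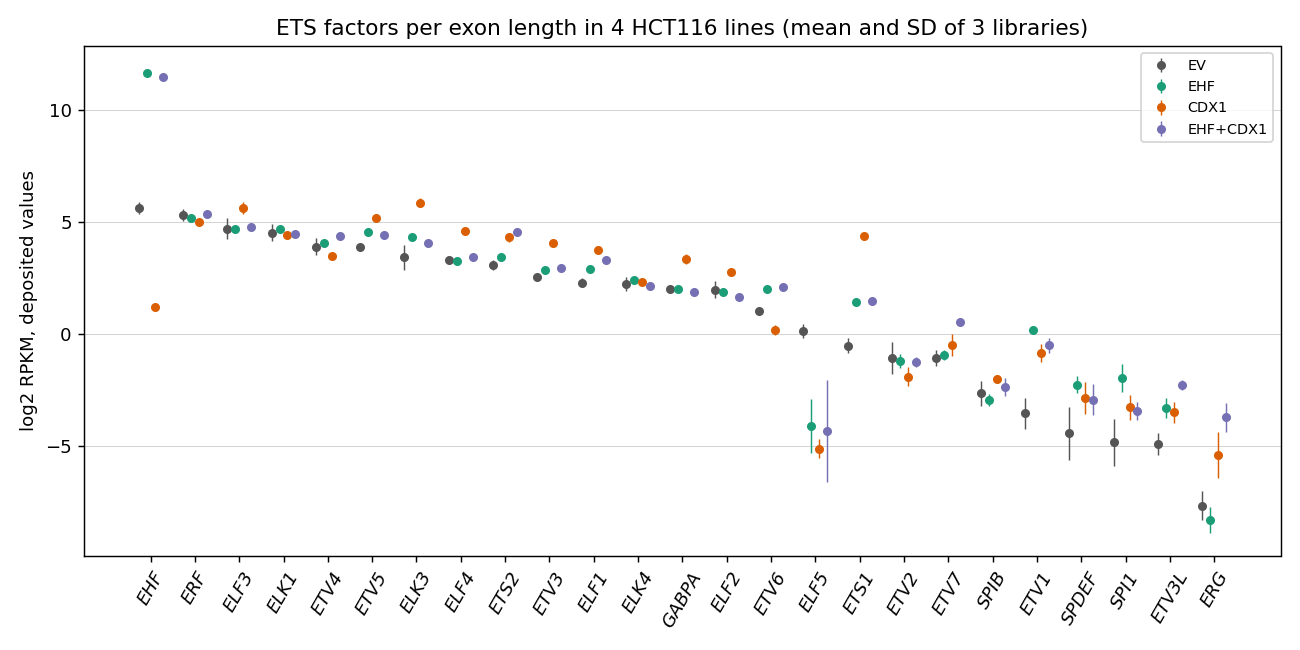
Deposited log2 RPKM of 25 ETS factors that passed the filter, ordered by their mean in HCT116EV, with a point for the mean and a bar for the SD of 3 libraries in each of 4 lines. EHF spans from 1.19 in HCT116CDX1 to 11.67 in HCT116EHF cells, and values at or below about -4 rest on few reads.

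Counted over the 10 factors, 5 rose and 0 fell in HCT116EHF against HCT116EV cells (EHF through its plasmid, ETS1, ETV5, ELF1 and SPDEF), where 14.9% of all 15853 tested genes rose and 15.1% fell. At the stricter test against a 1.5-fold change 3 of them rose, EHF, ETS1 and SPDEF, and 0 fell, beside 5.68% and 2.65% of all genes. The median log2 fold change of the 10 was 0.43, against -0.04 over all genes. In HCT116CDX1 against HCT116EV cells 8 rose and 2 fell, so that each of the 10 passed the test, beside 33.8% and 35.1% of all genes, with a median of 1.53 against -0.03, and the stricter test left 6 that rose and 1 that fell beside 21.3% and 23.3%. In HCT116EHF+CDX1 against HCT116EV cells 6 rose and 0 fell, beside 16.9% and 16.7% of all genes, with a median of 0.71 against -0.03. The stricter test left 4 and 0 beside 7.3% and 3.13%. EHF, through its plasmid, was among the 6 and among the 4. Where edgeR called 0 of the 10 as lower, 0 also reached an unadjusted p under 0.05 and 0 were called by limma voom or DESeq2. These 3 comparisons share the HCT116EV libraries. Without replicate 3 of HCT116EV the counts were 6 and 1, 8 and 2, and 7 and 1, in the same order. The shares of all genes were then 26.4% and 26.3%, 40.6% and 38.4%, and 28.1% and 26.9%.

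**Figure D3:**
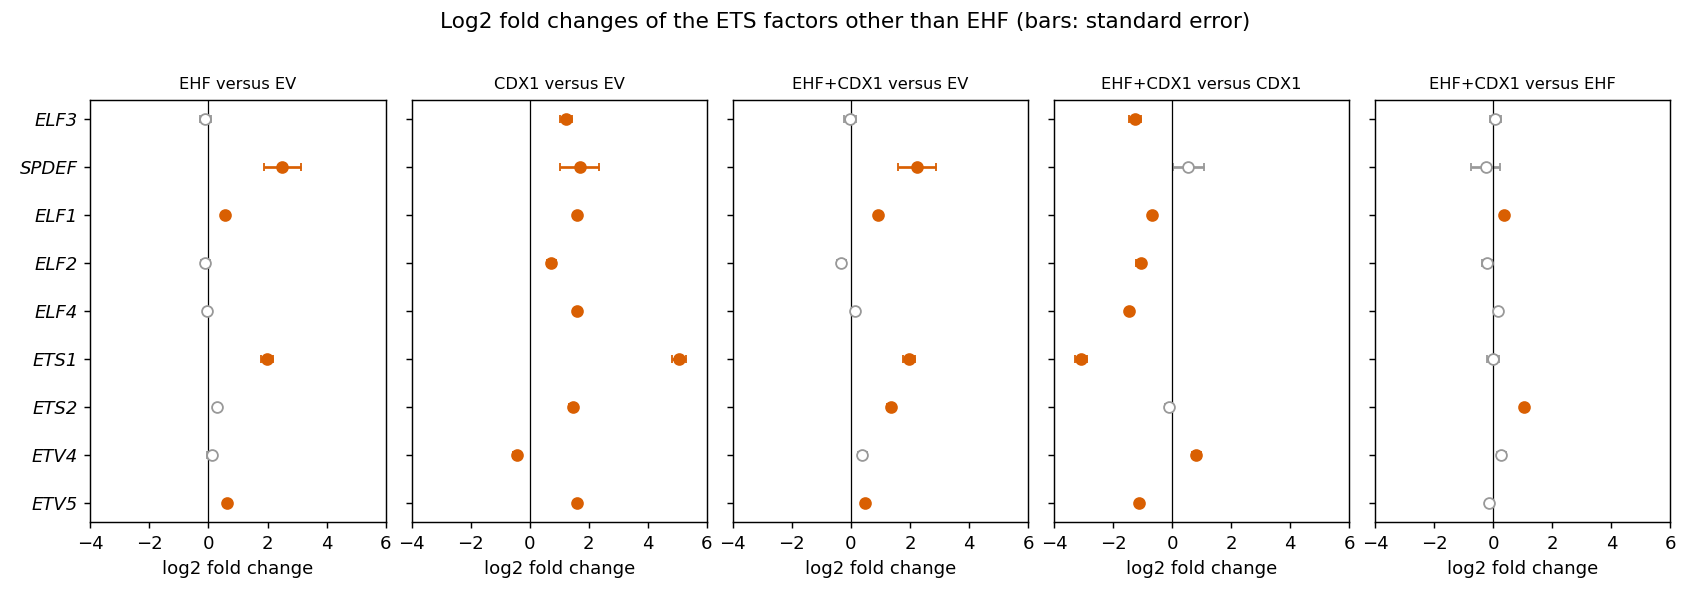
Log2 fold change of the 9 ETS factors other than EHF in 5 comparisons, with bars for the standard error, filled orange points where the edgeR adjusted p was under 0.05 and open grey points elsewhere. The points lie right of 0 for 8 of 9 genes in CDX1 versus EV, from 0.73 for ELF2 to 5.06 for ETS1, and left of 0 for 7 of 9 in EHF+CDX1 versus CDX1.

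In HCT116EHF+CDX1 against HCT116CDX1 cells 2 of the 10 rose, EHF through its plasmid and ETV4, and 6 fell, ETS1, ELF4, ELF3, ETV5, ELF2 and ELF1, beside 34.9% and 32.3% of all genes. The median log2 fold change was -0.87 against 0.04 over all genes, and the stricter test left 2 and 5 beside 22.3% and 18.7%. In HCT116EHF+CDX1 against HCT116EHF cells ETS2 and ELF1 rose and 0 fell, beside 5.65% and 4.13% of all genes, with a median of 0.03 against 0.00, and the stricter test left 1 and 0 beside 2.49% and 0.189%. The shift of all genes depends on the scaling here: with total counts only, the median over all genes moved by -0.34 in HCT116CDX1 against HCT116EV and by 0.36 in HCT116EHF+CDX1 against HCT116CDX1 cells, and no called factor changed its direction under any of the scalings tried.

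HCT116EHF+CDX1 cells also held more CDX1 than HCT116CDX1 cells, which the effect of EHF with CDX1 includes here. The difference between the effect of EHF with CDX1 and its effect without CDX1, the interaction, was tested for each factor. It was 4.56 ± 0.21 SE for EHF itself (edgeR adjusted p = 2.8e-08) and 0.71 ± 0.21 SE for ETV4 (edgeR adjusted p = 0.011). It was negative for 6 factors, ETS1 (-5.07 ± 0.29 SE), ETV5 (-1.73 ± 0.13 SE), ELF4 (-1.42 ± 0.13 SE), ELF1 (-1.23 ± 0.14 SE), ELF3 (-1.15 ± 0.27 SE) and ELF2 (-0.95 ± 0.22 SE), with edgeR adjusted p-values from 1.1e-07 for ETS1 to 0.0034 for ELF3. In the same order, these 6 stood 5.06, 1.60, 1.59, 1.60, 1.23 and 0.73 higher in HCT116CDX1 than in HCT116EV cells on the log2 scale. The same HCT116CDX1 libraries enter those rises, the falls in HCT116EHF+CDX1 cells and the interaction, so these are not separate results. ETS1, ELF1 and ETV5 rose when EHF was added to cells without CDX1 and fell when it was added to cells with CDX1, while ELF2, ELF3 and ELF4 did not pass the test without CDX1 and fell with it. SPDEF (-1.95 ± 0.83 SE, edgeR adjusted p = 0.060) and ETS2 (-0.41 ± 0.18 SE, edgeR adjusted p = 0.067) did not pass, but both did without replicate 3 of HCT116EV, at -3.25 and -0.53 (edgeR adjusted p = 0.010 and 0.0019). Over all genes 30.2% had a positive and 28.3% a negative interaction by the same rule. The stricter test left 1 factor with a positive interaction, EHF itself, and 5 with a negative one, beside 20.2% and 18% of all genes.

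**Figure D4:**
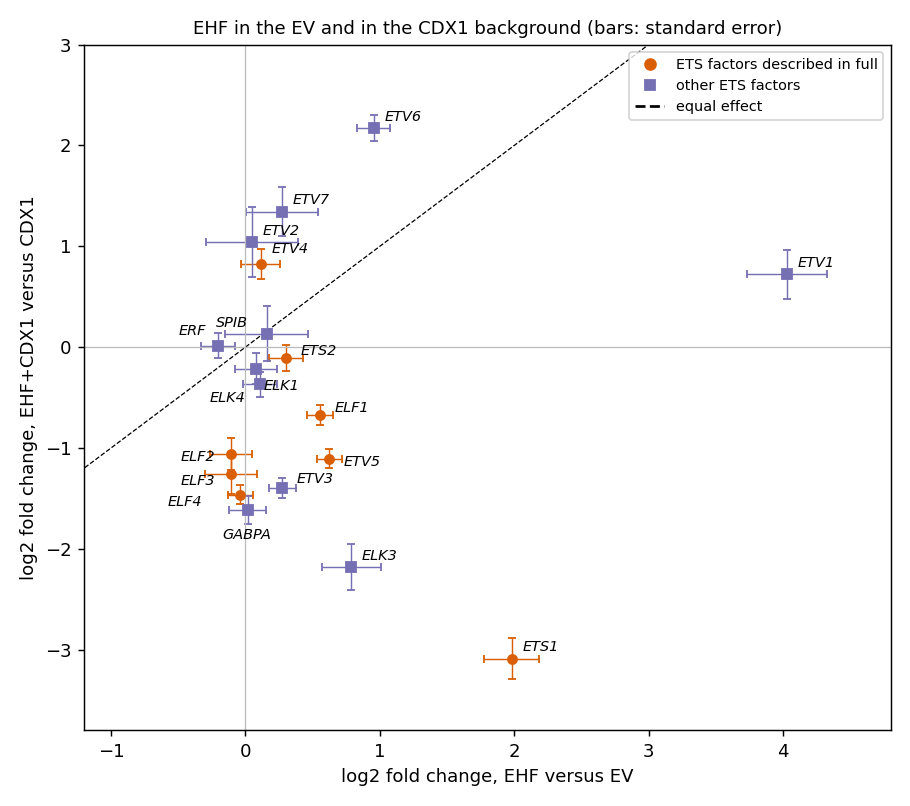
Log2 fold change of EHF versus EV on the x axis against that of EHF+CDX1 versus CDX1 on the y axis for ETS factors other than EHF, with bars for the standard error and a dashed line for equal effects. SPDEF, ELF5, SPI1, ETV3L and ERG are left out because of their few reads, and ETS1 lies farthest below the line at 1.98 and -3.09.

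The other 18 ETS genes of the human genome were described by the same fit. SPIC, FLI1 and FEV held at most 3, 2 and 8 reads in any library and were not tested. Of the 15 tested, 5 rose and 1 fell in HCT116EHF, 7 rose and 2 fell in HCT116CDX1, and 8 rose and 1 fell in HCT116EHF+CDX1 cells against HCT116EV, beside 14.9% and 15.1%, 33.8% and 35.1%, and 16.9% and 16.7% of all genes. In HCT116EHF+CDX1 cells 7 rose and 4 fell against HCT116CDX1 (34.9% and 32.3% of all genes), and 2 rose and 0 fell against HCT116EHF cells (5.65% and 4.13%), where 2 were lower at an unadjusted edgeR p under 0.05, 2 were called lower by limma voom and 0 by DESeq2. The median log2 fold changes over HCT116EV were 0.27, 0.80 and 0.53. Without replicate 3 of HCT116EV the calls against HCT116EV were 7 and 2, 8 and 4, and 8 and 3, where 26.4% and 26.3%, 40.6% and 38.4%, and 28.1% and 26.9% of all 15758 genes then tested were called.

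ETV1, the remaining PEA3 factor, was at 0.633 ± 0.272 CPM in HCT116EV, 10.0 ± 0.754 CPM in HCT116EHF, 3.88 ± 0.957 CPM in HCT116CDX1 and 6.49 ± 1.45 CPM in HCT116EHF+CDX1 cells (SD, n = 3 each). It rose against HCT116EV in the 3 other lines, at log2 fold changes of 4.03 ± 0.30 SE, 2.66 ± 0.30 SE and 3.38 ± 0.30 SE. ETV6, a repressor of the family, was at 16.8 ± 0.645, 32.7 ± 2.52, 7.92 ± 1.27 and 35.7 ± 3.18 CPM in the same order of lines. It rose in both lines with the EHF plasmid (0.95 ± 0.12 SE and 1.08 ± 0.12 SE) and fell in HCT116CDX1 cells (-1.09 ± 0.13 SE), and EHF likewise stood above HCT116EV in the plasmid lines and below it in HCT116CDX1. ETV7, a relative of ETV6, was at 1.05 ± 0.0525, 1.29 ± 0.220, 1.58 ± 0.522 and 3.97 ± 0.553 CPM, and rose in HCT116EHF+CDX1 against HCT116EHF cells (1.66 ± 0.25 SE, edgeR adjusted p = 0.0013).

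ELK3, a ternary complex factor that works with SRF, was at 49.0 ± 19.8, 84.7 ± 1.81, 323 ± 56.8 and 71.2 ± 3.23 CPM in HCT116EV, HCT116EHF, HCT116CDX1 and HCT116EHF+CDX1 cells. GABPA, which binds DNA as a complex with GABPB1, was at 22.5 ± 1.45, 22.8 ± 1.69, 64.2 ± 12.2 and 21.0 ± 2.27 CPM, and ETV3, a repressor, at 37.5 ± 1.12, 45.4 ± 1.74, 128 ± 17.4 and 48.7 ± 2.78 CPM. All 3 rose in HCT116CDX1 against HCT116EV cells, at log2 fold changes of 2.72 ± 0.23 SE, 1.51 ± 0.14 SE and 1.77 ± 0.10 SE, and fell in HCT116EHF+CDX1 against HCT116CDX1 cells (-2.18, -1.62 and -1.40). They were highest in HCT116CDX1, as ELF3, ELF4 and ETS1 were. ELK3 also stood at 71.7 CPM in replicate 3 of HCT116EV against 35.5 and 39.7 CPM in the others, and without it the log2 fold changes over HCT116EV were 1.17, 3.10 and 0.92 in HCT116EHF, HCT116CDX1 and HCT116EHF+CDX1 cells in place of 0.79, 2.72 and 0.53, the last of which did not pass the test with all libraries (edgeR adjusted p = 0.081). ELK1 was at 61.1 to 71.3 CPM and ERF at 113 to 130 CPM by line means, and neither passed any of the 6 tests, but without replicate 3 of HCT116EV ERF was lower in all 3 comparisons with HCT116EV (-0.35, -0.21 and -0.19) and ELK1 in HCT116EHF+CDX1 cells (-0.34). ELK4 was at 55.8 to 72.0 CPM and fell in HCT116EHF+CDX1 against HCT116CDX1 cells (-0.37 ± 0.13 SE, edgeR adjusted p = 0.021). Without replicate 3 of HCT116EV it was higher than HCT116EV in HCT116EHF (0.29, edgeR adjusted p = 0.0015) and HCT116CDX1 cells (0.43, edgeR adjusted p = 1.3e-05). HCT116EHF+CDX1 cells did not pass that test (0.06, edgeR adjusted p = 0.47).

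Of the low ETS genes, ELF5, an epithelial factor of mammary gland and other glands, was the one that fell in all 3 comparisons with HCT116EV. It held 63 to 143 reads per library in HCT116EV, 1 to 27 in HCT116EHF, 1 or 2 in HCT116CDX1 and 5 to 33 in HCT116EHF+CDX1, with means of 2.81, 0.214, 0.0327 and 0.345 CPM. ERG, known from endothelium, had no read in HCT116EV, at most 4 in HCT116EHF, 2 to 12 in HCT116CDX1 and 15 to 50 in HCT116EHF+CDX1, where its mean of 0.831 CPM was at least 5.85-fold higher than the highest limit of 3 counts among the HCT116EV libraries. SPI1, a factor of blood cells, was at 0.0622 CPM in HCT116EV and 0.911, 0.286 and 0.463 CPM in HCT116EHF, HCT116CDX1 and HCT116EHF+CDX1. ETV3L was at 0.0245, 0.258, 0.111 and 0.555 CPM, SPIB at 0.470, 0.50, 0.796 and 0.844 CPM and ETV2 at 0.935, 0.955, 0.510 and 1.07 CPM in the same order. ETV2 passed the test in HCT116EHF+CDX1 against HCT116CDX1 cells (1.04 ± 0.35 SE, edgeR adjusted p = 0.019). The rises of SPIB over HCT116EV in HCT116CDX1 and HCT116EHF+CDX1 cells were lost without replicate 3 of HCT116EV (edgeR adjusted p = 0.15 and 0.10). The blood cell markers PTPRC, CD3E and MS4A1 held at most 6, 3 and 0 reads in any library, while CD68 held 2984 to 3606 reads in the HCT116CDX1 libraries. The summed level of these 4 was 2.18 to 10.5 CPM in HCT116EV, 12.7 to 13.9 CPM in HCT116EHF, 76.9 to 88.2 CPM in HCT116CDX1 and 21.0 to 26.6 CPM in HCT116EHF+CDX1. The fibroblast markers COL1A2 and DCN held at most 7 and 4 reads, and COL1A1 held 6614 to 10005 in HCT116CDX1.

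Partners and regulators of ETS factors, 12 genes that include kinases and cofactors, gave 2 that rose and 1 that fell in HCT116EHF, 8 that rose and 3 that fell in HCT116CDX1, and 2 that rose and 0 that fell in HCT116EHF+CDX1 against HCT116EV, where 14.9% and 15.1%, 33.8% and 35.1%, and 16.9% and 16.7% of all genes did so. Without replicate 3 of HCT116EV the counts were 3 and 3, 8 and 3, and 2 and 3, beside 26.4% and 26.3%, 40.6% and 38.4%, and 28.1% and 26.9% of all genes. The 2 in HCT116EHF+CDX1 cells were ATXN1, whose protein works with the PEA3 repressor CIC, at a log2 fold change of 2.33 ± 0.26 SE, and RUNX1, a partner of ETS1 on DNA, at 1.86 ± 0.29 SE. ATXN1 was at 4.27 ± 2.16, 29.8 ± 1.12, 98.2 ± 15.6 and 22.4 ± 0.210 CPM in HCT116EV, HCT116EHF, HCT116CDX1 and HCT116EHF+CDX1 cells, and RUNX1 at 17.6 ± 10.3, 57.1 ± 0.945, 130 ± 11.8 and 64.6 ± 4.50 CPM. Both were highest in HCT116CDX1 and lowest in HCT116EV, as ETS1 was. Replicate 3 was the highest HCT116EV library for both, and without it their log2 fold changes in HCT116EHF+CDX1 cells were 2.89 and 2.47. The median of the 12 was 0.17, 0.59 and -0.0038 in the 3 comparisons. Against HCT116CDX1 cells, 2 rose and 6 fell in HCT116EHF+CDX1 beside 34.9% and 32.3% of all genes, and against HCT116EHF cells, where 5.65% and 4.13% were called, edgeR called 0, also at an unadjusted p under 0.05. Against HCT116EV, 3 were lower in HCT116EHF+CDX1 cells at an unadjusted p under 0.05.

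Of 16 genes described as targets of ETS factors, 14 were tested, SPRR2A and PIGR having too few reads. Of these, 4 rose and 0 fell in HCT116EHF, 8 rose and 3 fell in HCT116CDX1, and 9 rose and 0 fell in HCT116EHF+CDX1 against HCT116EV, with medians of 0.96, 0.76 and 0.86, beside 14.9% and 15.1%, 33.8% and 35.1%, and 16.9% and 16.7% of all genes. These counts moved with replicate 3 of HCT116EV: without it 11 and 0, 10 and 2, and 13 and 0 were called, with medians of 1.69, 0.999 and 1.43, beside 26.4% and 26.3%, 40.6% and 38.4%, and 28.1% and 26.9% of all genes. Against HCT116CDX1 cells 5 rose and 1 fell in HCT116EHF+CDX1 (34.9% and 32.3% of all genes), and against HCT116EHF cells 4 rose and 0 fell (5.65% and 4.13%). Where 0 of these targets fell in the edgeR test, 0 were lower at an unadjusted p under 0.05. MMP14, a membrane-bound matrix metalloproteinase, was at 3.60 ± 2.51, 28.4 ± 1.61, 44.7 ± 2.65 and 28.8 ± 2.47 CPM in the 4 lines, at a log2 fold change of 2.91 ± 0.33 SE in HCT116EHF+CDX1, or 3.73 without replicate 3 of HCT116EV. LCN2, an epithelial protein that binds siderophores, was at 13.3 ± 15.9, 33.9 ± 1.54, 10.7 ± 2.09 and 84.1 ± 3.30 CPM, at 2.61 ± 0.60 SE (edgeR adjusted p = 0.0059), with HCT116EV libraries from 3.69 to 31.6 CPM. Replicate 3 of HCT116EV held the highest of these, and without it the log2 fold change of LCN2 in HCT116EHF+CDX1 was 4.35. Its changes in HCT116EHF (1.30, edgeR adjusted p = 0.12) and HCT116CDX1 cells (-0.36, edgeR adjusted p = 0.60) did not pass the test with all libraries, and without replicate 3 they were 3.04 and 1.37 and passed it, the latter with the opposite sign. NOS2, the inducible nitric oxide synthase, held at most 1 read in HCT116EV, 10 in HCT116EHF and 3 in HCT116CDX1 libraries and 18 to 40 in HCT116EHF+CDX1. MMP1, a collagenase, was at 0.0796, 0.247, 2.77 and 1.35 CPM.

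The genes whose log2 CPM followed EHF most closely over the 12 libraries, by Pearson's r, were RNF43 and KALRN (0.995 each), COASY (0.989), SRGAP2 (0.988) and SDC1 (0.988). RNF43, a ubiquitin ligase that removes Wnt receptors, was at 52, 137, 29.8 and 132 CPM in HCT116EV, HCT116EHF, HCT116CDX1 and HCT116EHF+CDX1. SDC1, the heparan sulphate proteoglycan syndecan-1, was at 59.7, 128, 39.4 and 144 CPM. For ELF3 the closest were IFITM10 (0.986), H1-2 (0.985), the mitochondrial ribosomal RNA RNR1 (0.981), SCX (0.981) and CMIP (0.981). All were highest in HCT116CDX1, RNR1 at 4796 CPM there against 1295 to 1476 CPM elsewhere. These are descriptions over libraries that fall into 4 lines.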

How the data were processed

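RNA-seq of polyA RNA from 4 stable HCT116 lines was examined. The authors aligned reads to GRCh38/hg38 and counted uniquely mapped reads on RefSeq exons. The submitters' processing notes name Subread 2.0.0, featureCounts 2.0.0 and limma, and the strand setting is not given in the sources used here. The deposited raw counts were used for all tests. The log2 RPKM values, deposited for the filtered genes, come from voom with quantile normalization by the authors, and served for levels per length.

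Counts were fitted in R 4.3.3 with edgeR 4.0.16 (TMM, quasi-likelihood F test against no change, 4 lines as groups, all 12 libraries). Genes with at least 0.5 CPM in at least 3 libraries were kept, 15853 of 28395, which left out 0.0585% of the counts. Calls were made at a Benjamini-Hochberg adjusted p of 0.05 over all of them, with glmTreat against a 1.5-fold change as a second rule. Standard errors were obtained by dividing the absolute log2 fold change by the root of F. Positions and promoters came from RefSeq (GRCh38.p14).

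The labels give 3 libraries per line, whereas the study's description of its RNA-seq clustering speaks of 2 biological replicates, and which libraries those are is not given in the sources used here. The sources do not say that the 3 libraries of a line came from separate cultures, so p-values measure only the spread between these samples, which may be technical. Total counts of 13523007 to 74186741 per library set the precision of low genes.

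The genes and lists were chosen with earlier results of these data known. Named genes are the 10 factors, every other ETS gene that passed the filter, the 4 partners or targets with the largest called change in HCT116EHF+CDX1 against HCT116EV, and the 5 genes closest to EHF and to ELF3 by Pearson's r on log2 CPM (prior count 2) among genes whose mean log2 CPM reached 1. Only 2 partners were called.

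Alternatives were limma 3.58.1, DESeq2 1.42.0, other scalings, no filter, fewer libraries and a replicate block. Tested on simulated counts for 15853 genes with 200 changed 4-fold, the edgeR test of HCT116EHF+CDX1 against HCT116EV recovered 93% with 9 false calls, and the interaction 85% with 6.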

Additional observations from a re-analysis of the deposited data

Results flagged for a closer look

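By the interaction term of the edgeR fit, the change with the EHF plasmid differed between cells with and without CDX1 for 8 of the 10 factors. EHF itself is among the 8. Of these, 2 had a positive and 6 a negative difference, beside 30.2% and 28.3% of all 15853 genes. On the log2 scale the difference was 4.56 for EHF, 0.71 for ETV4, -0.95 for ELF2, -1.15 for ELF3, -1.23 for ELF1, -1.42 for ELF4, -1.73 for ETV5 and -5.07 for ETS1. For EHF it holds the lower level of HCT116CDX1 against HCT116EV cells, since the difference between the plasmid lines was -0.05 ± 0.14 SE. For the 6 with a negative difference it holds their higher level in HCT116CDX1 against HCT116EV cells, from the same libraries, and is no separate result. HCT116EHF+CDX1 cells entered this term with 10.3-fold more CDX1 RNA than HCT116CDX1 cells, and with a plasmid and geneticin selection. The term is therefore not the effect of EHF alone. HCT116CDX1 cells entered it with a mitochondrial ribosomal RNA share of 2.22 to 2.62% against 0.715 to 1.35% elsewhere. The part of these differences in the result was not tested.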

How the results depend on the processing

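Each of 60 log2 fold changes, 10 factors in 6 comparisons, was recomputed under up to 25 alternative settings. Of 1487 values, 1405 kept their direction and side of the threshold or changed sign without a call on either side, 53 lost the call, 29 gained one and 0 were reversed, and 36 of the 60 kept their call throughout. SPDEF could not be fitted in 3 comparisons when only the lines compared were used, since it then fell below the filter. Against a 1.5-fold change the factors that rose numbered 3 instead of 5 in HCT116EHF against HCT116EV, 1 instead of 2 in HCT116EHF+CDX1 against HCT116EHF and 1 instead of 2 in the interaction, and 1 instead of 2 fell in HCT116CDX1 against HCT116EV. With only the lines compared, 1 fell in HCT116CDX1 against HCT116EV, and 4 rose and 2 fell in HCT116EHF+CDX1 against HCT116EHF. With all genes of at least 1 count, 1 rose in the latter. When a library or a replicate number was left out, the factors that rose numbered 3 to 6 in HCT116EHF against HCT116EV, 0 to 3 in HCT116EHF+CDX1 against HCT116EHF and 1 to 2 in the interaction, and those that fell 0 to 1 in HCT116EHF and in HCT116EHF+CDX1 against HCT116EV and 1 to 2 in HCT116CDX1 against HCT116EV. Samples of the same number did not deviate together (18 pairs, r from -0.07 to 0.08, 0 over 0.1). This cannot show whether they share a culture or a preparation, which the sources do not give. With a replicate block, 7 instead of 8 rose in HCT116CDX1 against HCT116EV, SPDEF being lost, and no other of these counts moved. Chosen after seeing the data, the fit without replicate 3 of HCT116EV was also read for the named genes other than the 10 factors and for the partner and target lists, and there LCN2 in HCT116CDX1 against HCT116EV was reversed at 1.37. Depth limits SPDEF, SPI1, ETV3L, ERG and NOS2, which rest on few reads.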
